A study of Mus musculus with 34 samples.

Results

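The 40 genes described here code for proteins that act when a cell copies its DNA and divides. They were chosen by name, not by a threshold on their levels, and Mki67 and Top2a serve as the markers of proliferating cells. All 40 were among the 13108 gene rows of the count table, and all 40 passed the filter on low counts in every comparison. 8 of them serve S phase, the period of DNA synthesis, or are E-type cyclins that open it, and the other 32 are mitotic.

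Libraries were made by SMART-Seq2 from 100 hematopoietic stem cells each, sorted from bone marrow as LSK CD48-CD150+ cells of C57BL/6 mice. YTHDF2 is a reader of N6-methyladenosine on mRNA that promotes decay of the bound transcript. Ythdf2 CKO mice (Ythdf2 fl/fl;Vav-iCre) lose Ythdf2 throughout the blood system, because the Vav promoter drives iCre in hematopoietic cells from fetal life on, and Ythdf2 CTL mice (Ythdf2 fl/fl) carry the same floxed allele, in which GFP is fused to YTHDF2, without the Cre. The groups were young CTL (4 mice), young CKO (4 mice), and mice of 1 yr, here called aged, with 4 CTL and 5 CKO. Each mouse gave 2 libraries, A and B, and their counts were added, except that 1 library of aged CTL mouse 99, with 187034 counts, was left out, so that 33 libraries of 17 mice remained.

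Dividing cells express these genes in waves. In late G1 the E2F factors, released from the retinoblastoma proteins, switch on the enzymes that make nucleotides and copy DNA, and in G2 the B-MYB and FOXM1 factors with the MuvB core complex, together with NF-Y, switch on the mitotic genes through promoter elements named the cell cycle genes homology region and the CCAAT box. In resting cells the DREAM complex, which holds the same MuvB core, represses these genes through the first of these elements. Most adult hematopoietic stem cells rest in G0, where both waves are low. How much of a bulk level of such a gene in sorted stem cells comes from the minority of cells in cycle was not measured here. In a pool of 100 cells, fewer cycling cells and less RNA of a gene per cycling cell cannot be told apart.

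Promoter sequences from RefSeq (GRCm38.p6) were at hand for 34 of the 40 genes, each running from 250 bases before the first transcribed base to 50 after it. Those of Smc4, Tpx2, Ccne2, Aurkb, Foxm1 and Ccna2 were not used here. The 7 stretches below end at or before the first transcribed base given by RefSeq. By the gene bounds of GENCODE vM21, the Pcna stretch lies inside the gene, and those of Cdk1 and Cdc20 do so in part. The stretches are shown because TTTGAA stood in most mitotic and in no S-phase member, while CCAAT stood in members of both kinds. They are written 5′ to 3′ on the strand of the gene, and capitals mark TTTGAA (the core of the cell cycle genes homology region), CCAAT (the core bound by NF-Y) and TTTCGCGC (letters of an E2F site), each on either strand, so that reverse complements are marked as well. They are those of Mki67 (chr7:135716470-135716569, minus strand), Top2a (chr11:99024190-99024379, minus), Cdk1 (chr10:69352913-69353052, minus), Cdc20 (chr4:118437344-118437403, minus), Kif11 (chr19:37376322-37376381, plus), and, of the S-phase genes, Pcna (chr2:132253181-132253280, minus) and Rrm1 (chr7:102441595-102441694, plus).
Mki67: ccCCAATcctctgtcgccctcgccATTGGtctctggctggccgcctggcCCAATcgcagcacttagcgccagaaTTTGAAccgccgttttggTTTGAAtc
Top2a: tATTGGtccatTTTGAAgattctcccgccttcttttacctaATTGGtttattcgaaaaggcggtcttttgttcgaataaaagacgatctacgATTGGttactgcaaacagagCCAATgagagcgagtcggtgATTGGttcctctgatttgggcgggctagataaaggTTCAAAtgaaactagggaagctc
Cdk1: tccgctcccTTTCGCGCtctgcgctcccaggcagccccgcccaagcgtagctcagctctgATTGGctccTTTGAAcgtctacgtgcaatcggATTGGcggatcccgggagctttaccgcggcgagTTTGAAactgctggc
Cdc20: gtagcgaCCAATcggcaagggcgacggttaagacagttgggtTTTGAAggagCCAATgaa
Kif11: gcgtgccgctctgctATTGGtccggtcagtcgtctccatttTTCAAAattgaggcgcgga
Pcna: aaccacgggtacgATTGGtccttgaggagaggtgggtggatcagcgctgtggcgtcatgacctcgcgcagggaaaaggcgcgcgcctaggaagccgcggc
Rrm1: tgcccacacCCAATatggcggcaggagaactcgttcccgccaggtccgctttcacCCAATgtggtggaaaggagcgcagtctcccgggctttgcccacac

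The Cdk1, Cdc20 and Kif11 stretches each held TTTGAA within 20 bases of the start, and those of Mki67 and Top2a held it 2 times each, whereas the Pcna and Rrm1 stretches held CCAAT alone. Over the whole windows of 300 bases, TTTGAA stood in those of 21 of the 27 mitotic members with a sequence (77.8%) and in 0 of the 7 S-phase members, against 20.2% of the 27025 mouse genes with a RefSeq promoter and 14.5% of the 10288 of these in the count table. CCAAT stood in 23 of the 27 mitotic (85.2%) and 4 of the 7 S-phase members, against 41.1% of all genes, and both cores stood in 20 mitotic members (74.1%) against 8.97% of all genes. The mitotic members without TTTGAA were Nusap1, Bub1, Cenpe, Mad2l1, Birc5 and Ccnb1. The E2F letters were searched as TTTGGCGC, and as TTTCCCGC, and as TTTGGCGG, and as TTTCGCGC, and 1 or more of these stood in 4 members, Cdk1, Ncapg, Ncapd2 and Uhrf1, against 2.7% of all genes and 5.04% of those in the count table. Further genes not among the members were searched in the same way: TTTGAA stood in 65.9% of 44 mitotic and 21.1% of 38 S-phase genes, and the E2F letters in 9.09% and 50% of them. No match of one element overlapped a match of another in the members. A match is a description of the letters, and a window without one says nothing on the factor.

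**Figure D1:**
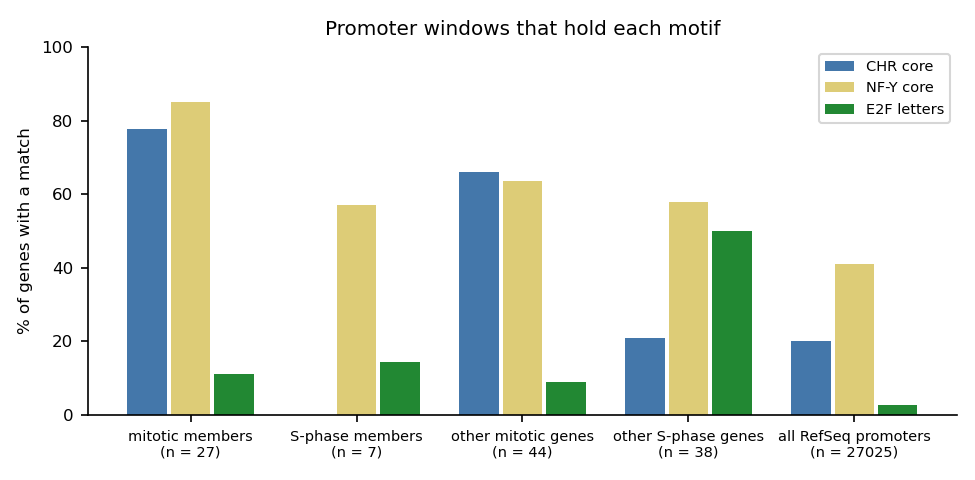
Percent of genes whose promoter window holds the core of the cell cycle genes homology region (CHR), the CCAAT box (NF-Y core) or the E2F letters, for the members, for further mitotic and S-phase genes and for all genes with a RefSeq promoter. The CHR bar stands at 77.8% for the 27 mitotic members and at 0 for the 7 S-phase members, beside 20.2% for all genes.

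Kept libraries held between 1859784 and 7784627 counts (median 3038200), and mice between 2218618 and 10125624, so that 3 counts, used as the floor of detection, corresponded to between 0.292 and 1.24 CPM (counts relative to the mouse's total, scaled by TMM over the 17 mice). No member came near the floor, since the lowest count of any member in any mouse was 28, and levels ran from 8.23 CPM (Foxm1 in a young CKO mouse) to 608 CPM (Ccnb2 in a young CTL mouse). These floors cover counting error only, as the libraries carry no molecular identifiers. Ythdf2 itself ran from 93.4 to 123 CPM in young CTL and from 50.3 to 60.3 CPM in young CKO mice. In aged mice 2 labels went against this level: the mouse labelled CKO 121 stood at 188 CPM, where the other CKO mice had 72.4 to 87.8 CPM, and the mouse labelled CTL 124 stood at 70.5 CPM, where the other CTL mice had 142 to 179 CPM. The calls, the counts and medians over the members and the values of the markers that involve aged mice are therefore given with and without these 2 mice. Y-linked reads were present above 1 CPM in 3 of 4 young CTL, 1 of 4 young CKO, 1 of 4 aged CTL and 1 of 5 aged CKO mice. Aged CTL 114 had 0.19 CPM of them. Young and aged mice also belonged to different sequencing submissions in the labels, so age and submission cannot be told apart.

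Compared between genes per kilobase of merged exons (GENCODE vM21 on GRCm38), and averaged over the 4 groups, Ccnb2, a B-type cyclin that activates CDK1, had the highest level, 230.4 CPM per kb. Next came Pcna, the sliding clamp of DNA polymerases, at 116 CPM per kb, Ube2c, the ubiquitin-conjugating enzyme of the anaphase-promoting complex, at 83.7, Cdc20, an activator of that complex, at 65.8, and Birc5, the survivin subunit of the chromosomal passenger complex, at 60.5 CPM per kb. Foxm1, the forkhead factor that switches on mitotic genes, had the lowest at 3.36 CPM per kb, below Anln, the contractile ring protein anillin, at 4.13. The markers lay in between: Top2a, the topoisomerase that disentangles sister chromatids, was in place 20 of 40 at 27.2 CPM per kb, and Mki67, the coat protein of mitotic chromosomes, in place 26 at 18.4. Ccnb1, Ccnb2, Tyms and Pcna have annotated pseudogene copies, and how reads matching several genes were counted is not given in the sources used here, so their levels are uncertain to that extent.

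In young mice nearly all members stood lower in Ythdf2 CKO than in Ythdf2 CTL HSCs, by small amounts, and no single gene's difference passed the test. Of the 40 log2 fold changes (CKO against CTL), 38 were below 0, against 50.1% of all 11526 genes tested, and their median was −0.34 (range −0.90 to 0.14) against a median of −0.00093 over all genes. With edgeR's quasi-likelihood test, mice as replicates and Benjamini-Hochberg adjustment over all genes at 0.05, no member was called in either direction (smallest adjusted p 0.34, for Pcna), and none by DESeq2 or by the likelihood ratio test over libraries. The test called 0.13% of all genes as higher and 0.0434% as lower. At an unadjusted p under 0.05, 10 members were lower and 0 higher, against 2.8% of all genes lower and 4.26% higher. The members moved together from mouse to mouse, as described below, so these counts do not stand for 40 separate results. The same holds for the counts of members in the comparisons that follow. The labels number the mice of a group as separate animals, and p-values measure the spread between them.

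The mean log2 CPM over the 40 members, used here as a score, was 6.95, 7.31, 6.53 and 7.18 in young CTL mice 1 to 4, and 6.80, 6.97, 6.28 and 6.55 in young CKO mice 1 to 4. The groups overlapped, since CTL mouse 3 lay below 3 of the CKO mice. The group means were 6.99 ± 0.34 (SD, n = 4) in CTL and 6.65 ± 0.30 (SD, n = 4) in CKO, a difference of −0.34. CTL mouse 3 went 2 ways: it had the lowest mean over the 32 mitotic members among young CTL mice (6.33) and the highest mean over the 8 S-phase members of all 17 mice (7.35). Leaving each mouse out in turn moved the difference between −0.49 (without CTL 3) and −0.22 (without CKO 3), and the number of members lower at an unadjusted p between 4 (without CTL 2) and 19 (without CTL 3). When Y-linked reads entered the fit as a covariate, 6 members were lower at an unadjusted p and all 40 log2 fold changes were below 0.

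**Figure D2:**
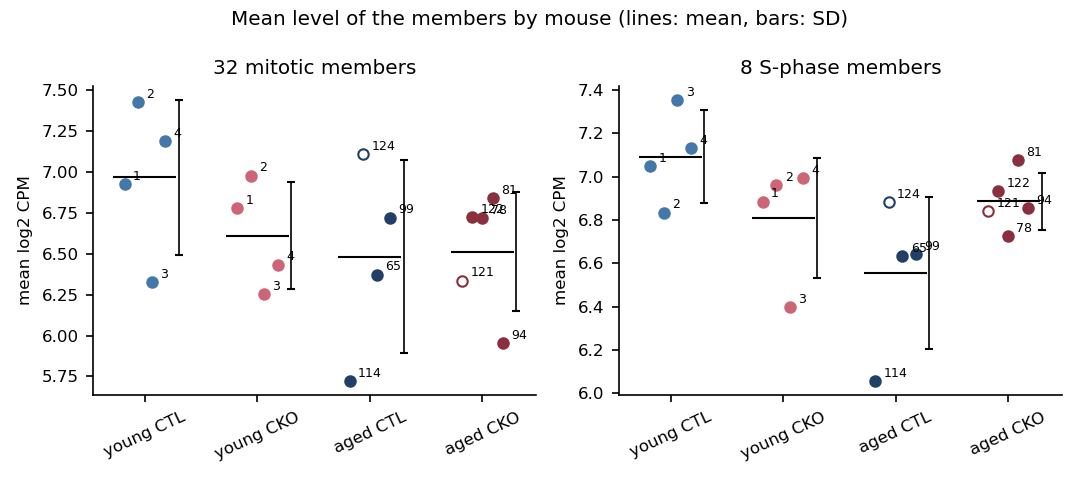
Mean log2 CPM over the 32 mitotic members (left) and the 8 S-phase members (right) in each numbered mouse, by group, with a line at the group mean, a bar for the SD and open circles for the mice labelled CKO 121 and CTL 124. Young CTL mouse 3 is the lowest of its group at 6.33 on the left and the highest at 7.35 on the right.

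The S-phase members of young mice were all 8 below 0 in CKO (median −0.23). Pcna (chr2:132249162-132253314) stood at 389.5, 377, 460.3 and 382 CPM in young CTL and at 279.6, 314, 255 and 324 CPM in young CKO mice. It was the only member whose young groups did not overlap, with every CKO mouse below every CTL mouse. Among all genes 2.09% had that order, near the share among the members. Its log2 fold change was −0.45 ± 0.13 (SE; p = 0.0039, edgeR adjusted p = 0.34). Ccne2, a cyclin partner of CDK2, had a log2 fold change of −0.51. Rrm1, the large subunit of ribonucleotide reductase and the S-phase member with the highest CPM, stood at 394, 318, 498 and 429 CPM in CTL and 409.6, 307, 178 and 416 CPM in CKO mice. CKO mouse 3 was the lowest by far, and the other values overlapped.

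The 7 members that drive entry into mitosis were all below 0 in young CKO mice (median −0.36), and among the 40 Foxm1 lay farthest from 0. Foxm1 stood at 27.1, 22.8, 17.9 and 14.97 CPM in CTL and 15.03, 10.4, 8.23 and 10.4 CPM in CKO mice, a log2 fold change of −0.90 ± 0.34 (SE; edgeR adjusted p = 0.54). CKO mouse 1 reached the level of CTL mouse 4 and the other 3 CKO mice lay below all CTL mice. Cdk1, the kinase that starts mitosis, stood at 215, 322, 177 and 354 CPM in CTL and 166, 257, 147 and 149 CPM in CKO mice, with −0.57 ± 0.23 (SE) on the log2 scale. Its groups overlapped through CKO mouse 2. Ccnb2 was at 453 ± 177 CPM (SD, n = 4) in CTL and 353 ± 72 CPM (SD, n = 4) in CKO mice, well inside its own spread. The other 4 in this group, the cyclins Ccna2 and Ccnb1 and the kinases Plk1 and Aurka, also had lower group means in CKO.

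Of the 6 members that shape mitotic chromosomes, all were below 0 (median −0.43), Top2a further than Mki67. Top2a (chr11:98992943-99024189) stood at 240.4, 430.4, 218 and 270.2 CPM in young CTL and 197, 224, 182 and 169 CPM in young CKO mice. CTL mouse 3 lay just inside the CKO range and the other 3 CTL mice lay above it. The log2 fold change was −0.59 ± 0.20 (SE; p = 0.0091, edgeR adjusted p = 0.46), and the two-sided exact permutation test over the mice gave p = 0.0571 on log2 CPM, where 0.0286 was the smallest p possible. Without CTL mouse 2, the highest, the log2 fold change was −0.32. Mki67 (chr7:135689784-135716361) stood at 120.3, 261, 105 and 170.0 CPM in CTL and 158, 192, 131 and 112 CPM in CKO mice. Its groups lay in one range, with a log2 fold change of −0.15 ± 0.25 (SE) and an exact permutation p of 0.857. The log2 fold change turned to 0.18 without CTL mouse 2 and was −0.31 without CTL mouse 3. Among the condensin subunits, Ncapd2 stood at 43.1, 79.7, 33.8 and 55.1 CPM in CTL and 35.99, 30.3, 28.1 and 33.96 CPM in CKO mice. Here too only CTL mouse 3 lay inside the CKO range, and the log2 fold change was −0.72 ± 0.26 (SE; edgeR adjusted p = 0.51), or −0.44 without CTL mouse 2. Smc4 (388 ± 118 against 311 ± 24 CPM; SD, n = 4 each), Smc2 and Ncapg had smaller log2 fold changes.

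The kinetochore and checkpoint genes were below 0 in 8 of 9 (median −0.49), and Mad2l1, the MAD2 protein that holds back anaphase, had the smallest p among them. Mad2l1 stood at 276, 256, 245 and 342 CPM in young CTL and 169, 251, 207 and 163 CPM in young CKO mice. Only CKO mouse 2 reached the CTL range, and the log2 fold change was −0.50 ± 0.16 (SE; edgeR adjusted p = 0.45). Aurkb, the kinase of the chromosomal passenger complex, had −0.59, and Birc5, its partner and the gene with the highest CPM in this group, was at 257 ± 70.5 and 255 ± 82 CPM (SD, n = 4 each). Cenpe, a kinetochore motor, was the exception at 0.14. Cenpa, the centromeric histone, Cenpf, and the checkpoint kinases Bub1, Bub1b and Ttk made up the rest.

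The 3 spindle genes divided, with Nusap1, a microtubule bundler, at −0.62 ± 0.23 (SE; edgeR adjusted p = 0.54), Kif11, the motor that separates the poles, at −0.17, and Tpx2, which activates Aurora A, at 0.09. Nusap1 stood at 221, 305, 174 and 268 CPM in CTL and 178, 230.0, 114 and 109.5 CPM in CKO mice, and its groups overlapped. Both genes of the anaphase-promoting complex were below 0, Cdc20 at −0.13 and Ube2c at −0.40. Ube2c spread widely, 348, 370.1, 119 and 420.1 CPM in CTL and 236, 395, 152 and 168 CPM in CKO mice, with CTL mouse 3 the lowest of the 8. All 5 genes of cytokinesis were below 0 (median −0.45), among them Racgap1, Kif23 and Ect2 of the centralspindlin pathway and Prc1, which bundles the midzone. Anln stood at 41.1, 69.9, 42.3 and 46.98 CPM in CTL and 42.9, 24.7, 15.7 and 27.9 CPM in CKO mice, a log2 fold change of −0.85 ± 0.29 (SE; edgeR adjusted p = 0.50). CKO mouse 1 lay inside the CTL range and the other 3 CKO mice below it.

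**Figure D3:**
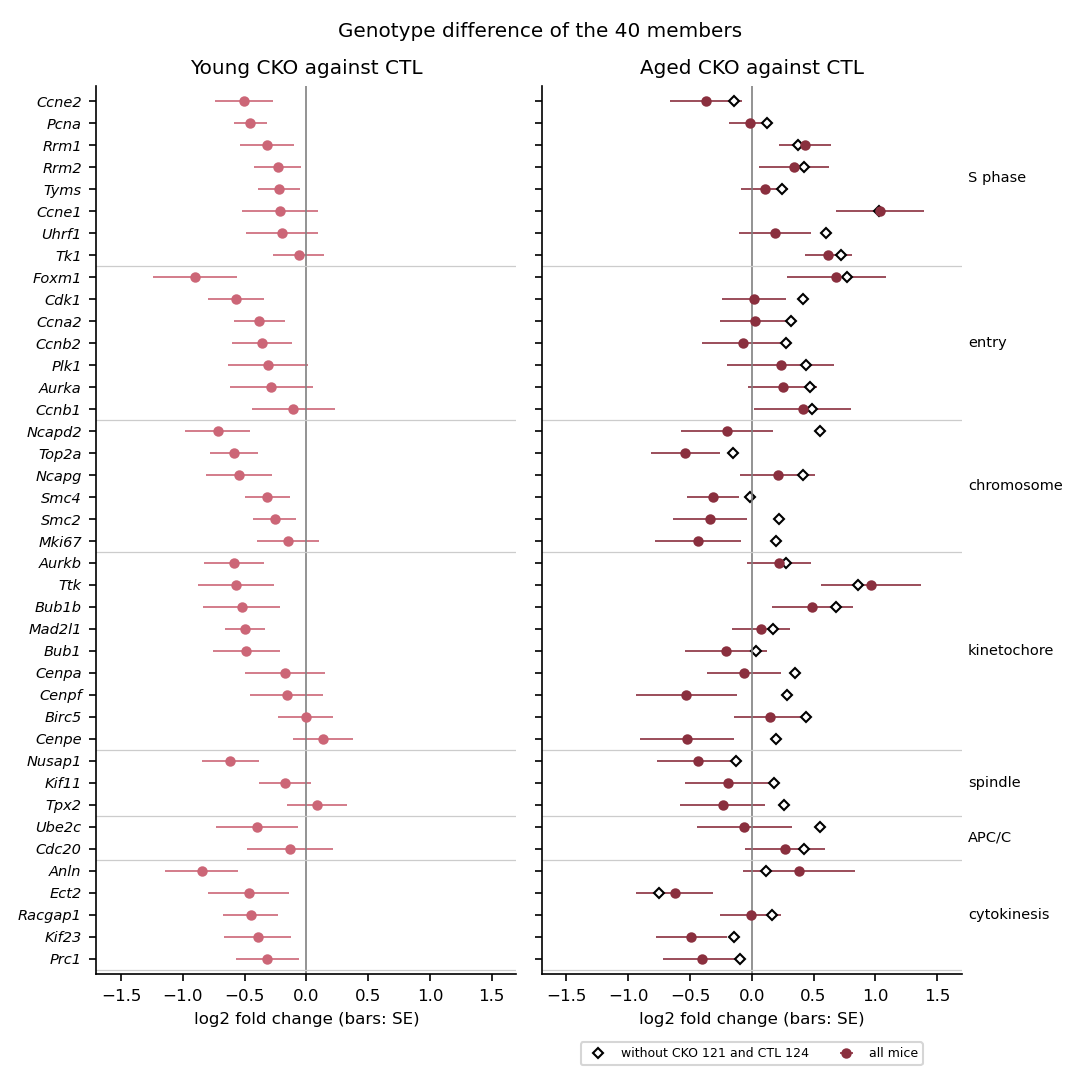
Log2 fold change (CKO against CTL) of each member with its standard error as a bar, in young mice (left) and aged mice (right, circles), ordered by role, with diamonds for the aged values without the mice labelled CKO 121 and CTL 124. The young values lie below 0 for 38 of 40 members, the aged values for 20 and, without the 2 mice, for 7.

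In aged mice the members had no common direction when all 9 mice were used, and mostly stood higher in Ythdf2 CKO than in Ythdf2 CTL HSCs without the 2 mice that went against their labels. Of the 40 log2 fold changes, 20 were below 0 with all 9 mice (all 11961 genes: 50.3%) and the median was 0.0048 (all genes: −0.0033). Without the mice labelled CKO 121 and CTL 124, 7 were below 0 (all 12005 genes: 50.8%) and the median was 0.28 (all genes: −0.0086). No member was called in either direction with all mice, when the test called 0% of all genes as higher and 0% as lower, or without the 2 mice, when it called 0.208% as higher and 0.125% as lower. At an unadjusted p, 3 members passed upward and 0 downward with all mice, against 4.45% and 5.65% of all genes, and 5 upward and 1 downward without the 2 mice, against 5.53% and 6.05%. DESeq2 called no member here, and the likelihood ratio test over libraries, which takes the libraries of a mouse as independent, called 1, Tk1 (adjusted p = 0.0435), among 420 genes called in all.

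The mean log2 CPM of the members was 5.79, 7.06, 6.42 and 6.71 in aged CTL mice 114, 124, 65 and 99, and 6.44, 6.76, 6.72, 6.89 and 6.13 in aged CKO mice 121, 122, 78, 81 and 94. Both the highest and the lowest of the 9 were CTL mice, and the highest was the mouse labelled CTL 124. The difference between the group means was 0.09 with all mice and 0.32 without CKO 121 and CTL 124, and ran from −0.14 (without CTL 114) to 0.28 (without CTL 124) when 1 mouse was left out. Of the mice that remained without the 2, CTL 114 was the lowest (5.79). CTL 65 and CTL 99 (6.42 and 6.71) lay inside the range of the remaining CKO mice, and the 0.32 was not computed again without CTL 114. For the 8 S-phase members the difference was 0.33 with all mice and 0.45 without the 2, and for the 32 mitotic members 0.03 and 0.29.

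Of the S-phase members of aged mice, 6 of 8 were above 0 with all mice (median 0.27) and 7 of 8 without the 2 (median 0.40). Tk1 (chr11:117815526-117826092), the thymidine kinase of S-phase cells, stood at 100.0, 109.7, 110.1 and 113 CPM in aged CTL mice 114, 124, 65 and 99, and at 116, 158, 155, 215 and 184 CPM in aged CKO mice 121, 122, 78, 81 and 94. Every CKO mouse was above every CTL mouse, the mouse labelled CKO 121 by the least. No other member had this order with all mice, and 1.78% of all genes had it, near the share among the members. The log2 fold change was 0.62 ± 0.19 (SE; p = 0.0062, edgeR adjusted p = 0.35), and 0.72 ± 0.18 (SE; p = 0.0015, edgeR adjusted p = 0.12) without the 2 mice. Without them the groups of Tyms, thymidylate synthase, and of Uhrf1, which carries DNA methylation through replication, did not overlap either. These were 3 of the 40 members, near the 6.06% of all genes that had that order.

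Ccne1, the cyclin E that drives entry into S phase, stood at 8.75, 12.5, 22.2 and 11.6 CPM in aged CTL and 23.8, 32.1, 20.5, 29.9 and 34.6 CPM in aged CKO mice in the same order. CKO 78 lay below CTL 65 and the other CKO mice above all CTL mice, and the log2 fold change was 1.03 ± 0.36 (SE; edgeR adjusted p = 0.39), or 1.03 ± 0.38 (SE; edgeR adjusted p = 0.32) without the 2 mice. Uhrf1 stood at 50.3, 143, 51.3 and 61.9 CPM in CTL and 104, 84.03, 86.6, 71.1 and 87.6 CPM in CKO mice. The mouse labelled CTL 124 was the highest of all. The log2 fold change was 0.19 ± 0.29 (SE; edgeR adjusted p = 0.88) with all mice and 0.60 ± 0.19 (SE; edgeR adjusted p = 0.24) without CTL 124 and CKO 121. Rrm1 ran from 194 to 417 CPM in CTL and from 357 to 496 CPM in CKO mice, with 0.43 ± 0.21 (SE) on the log2 scale and 0.37 ± 0.23 (SE) without the 2 mice, and 0.26 without CTL 114. Pcna, whose young groups did not overlap, stood at 170.2, 262, 221 and 188 CPM in CTL and 191, 194, 186, 253 and 210.0 CPM in CKO mice.

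Among the mitotic members of aged mice, the entry genes were above 0 in 6 of 7 (median 0.23) with all mice and in 7 of 7 (median 0.44) without the 2, and the cytokinesis genes in 1 of 5 and 2 of 5. The chromosome genes were above 0 in 1 of 6 (median −0.33) with all mice and in 4 of 6 (median 0.21) without the 2, the kinetochore genes in 5 of 9 and 9 of 9, the spindle genes in 0 of 3 and 2 of 3, and those of the anaphase-promoting complex in 1 of 2 and 2 of 2. Differences between the roles were not tested. Ttk, the MPS1 kinase of the spindle checkpoint, stood at 16.6, 12.5, 9.76 and 32.6 CPM in CTL and 32.4, 47.2, 44.2, 29.1 and 18.7 CPM in CKO mice, with 0.97 ± 0.41 (SE; edgeR adjusted p = 0.44) with all mice and 0.86 ± 0.44 (SE; edgeR adjusted p = 0.49) without the 2. Its groups overlapped through CTL 99. Bub1b, the checkpoint protein BUBR1, stood at 36.9, 121, 48.04 and 95.7 CPM in CTL and 145, 121, 98.2, 86.4 and 76.3 CPM in CKO mice, and had 0.49 with all mice and 0.68 ± 0.30 (SE; edgeR adjusted p = 0.41) without the 2. Ect2, the exchange factor that activates RhoA in cytokinesis, went the other way, at 30.7, 43.9, 48.7 and 38.4 CPM in CTL and 37.4, 18.9, 21.1, 36.03 and 16.9 CPM in CKO mice. Its log2 fold change was −0.62 ± 0.31 (SE; edgeR adjusted p = 0.51), and −0.75 ± 0.32 (SE; edgeR adjusted p = 0.39) without the 2 mice. Ncapd2 turned in sign, from −0.20 ± 0.37 (SE) with all mice to 0.55 ± 0.25 (SE; edgeR adjusted p = 0.42) without the 2, where it was the other member past an unadjusted p of 0.05.

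The markers rested on 1 mouse in the aged groups. Mki67 stood at 133, 475, 144 and 232 CPM in aged CTL and 125, 251, 155, 239 and 134 CPM in aged CKO mice, and the mouse labelled CTL 124 was far above all others. The log2 fold change was −0.44 ± 0.35 (SE) with all mice and 0.20 ± 0.26 (SE) without the 2, and both exact permutation tests over mice gave p = 0.571, where 0.0159 and 0.0571 were the smallest p possible. Top2a stood at 178, 515, 194 and 298 CPM in CTL and 209, 197, 213, 249.5 and 144 CPM in CKO mice, again with CTL 124 the highest. It had −0.54 ± 0.28 (SE; edgeR adjusted p = 0.53; exact permutation p = 0.27) with all mice and −0.15 ± 0.22 (SE; exact permutation p = 0.657) without the 2. The member with the highest CPM in each role, length aside, was Rrm1 for S phase, and the others were, in aged CTL and CKO mice, Ccnb2 (311 ± 144 and 295 ± 97 CPM), Smc4 (249 ± 90 and 199 ± 26), Ube2c (163 ± 102 and 156 ± 62), Birc5 (148 ± 52.5 and 164 ± 58), Prc1 (200 ± 104 and 151 ± 40.4) and Nusap1 (120 ± 51 and 88 ± 33; SD, n = 4 CTL and 5 CKO). In each of these 6 the difference between the group means was smaller than the larger SD, with all mice and without CKO 121 and CTL 124, when Ube2c, for example, was at 116 ± 45 and 169 ± 62 CPM (SD, n = 3 CTL and 4 CKO).

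**Figure D4:**
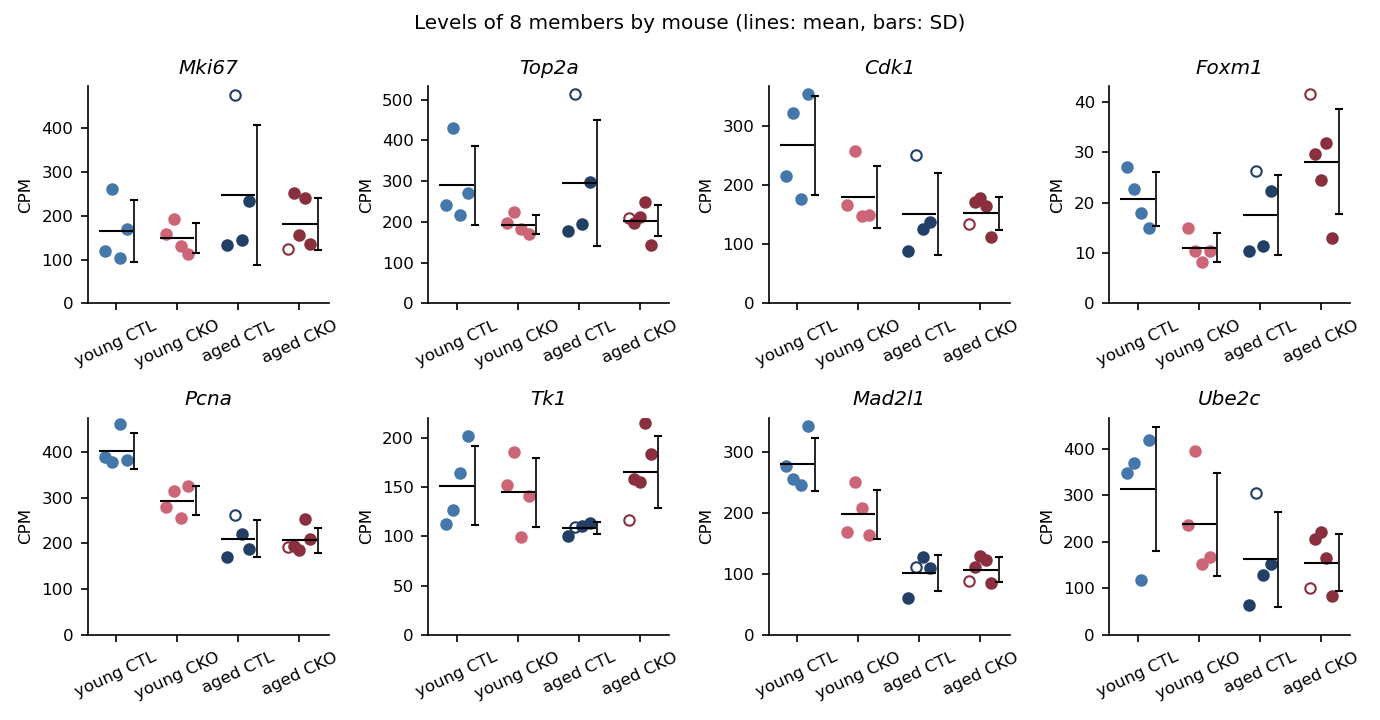
Level (TMM-scaled CPM) of Mki67, Top2a, Cdk1, Foxm1, Pcna, Tk1, Mad2l1 and Ube2c in each mouse by group, with a line at the mean, a bar for the SD and open circles for the mice labelled CKO 121 and CTL 124. Mki67 in CTL 124 (475 CPM) lies above every other mouse, and every young Pcna value in CTL lies above those in CKO.

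Whether the genotype difference itself differed with age was tested as an interaction over all 17 mice, in which a positive value means a higher log2 fold change (CKO against CTL) in aged mice. Of the 40 values, 10 were below 0 (all 12352 genes: 51.9%), with a median of 0.39 (all genes: −0.02). No member was called (the test called 0% of all genes as higher and 0% as lower), and at an unadjusted p, 7 were higher and 0 lower, against 2.06% and 2.7% of all genes. DESeq2 called none and had 8 higher at an unadjusted p. Without the mice labelled CKO 121 and CTL 124, Ect2 was the 1 member below 0 (all 12409 genes: 50.9%), the median was 0.61 (all genes: −0.01), 12 passed an unadjusted p upward and 0 downward (2.84% and 3.88% of all genes), and none was called (0.00806% and 0.113% of all genes). When 1 mouse was left out, the number below 0 ran from 2 (without aged CTL 124) to 15 (without aged CTL 114), the median from 0.19 (without aged CTL 114) to 0.57 (without aged CTL 124), and the count at an unadjusted p from 3 (without young CKO 3) to 10 (without aged CTL 124).

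All 8 S-phase and all 7 entry genes had a positive interaction with all mice and without the 2, and without the 2 so did all 6 chromosome and all 9 kinetochore genes. Foxm1 had 1.59 ± 0.53 (SE; p = 0.0070, edgeR adjusted p = 0.94), and 1.69 ± 0.53 (SE; edgeR adjusted p = 0.42) without the 2 mice. In aged mice it stood at 10.4, 26.3, 11.4 and 22.3 CPM in CTL and 41.5, 29.7, 24.6, 31.8 and 13.04 CPM in CKO mice, the reverse of its order in young mice, with the mouse labelled CKO 121 the highest and the groups overlapping. Ttk had 1.55 ± 0.53 (SE; edgeR adjusted p = 0.94), Ccne1 1.24 ± 0.46 (SE; edgeR adjusted p = 0.95), Tk1 0.68 ± 0.29 and Rrm1 0.75 ± 0.33 (SE; edgeR adjusted p = 0.999 for both), and Anln 1.24 ± 0.58 (SE). The Anln value was 1.88 without aged CTL 99 and 0.94 without aged CTL 114, and without CKO 121 and CTL 124 Anln had 0.98 and Ttk 1.45. Without these 2 mice, Ncapd2 came first at 1.27 ± 0.37 (SE; p = 0.0025, edgeR adjusted p = 0.35), followed after Foxm1 by Cdk1 at 0.99 ± 0.34, Pcna at 0.58 ± 0.21, Tk1 at 0.79 ± 0.29 and Ccne1 at 1.25 ± 0.48 (SE; smallest edgeR adjusted p of these 0.53). With all mice Ncapd2 had 0.51 ± 0.50, Cdk1 0.58 ± 0.38 and Pcna 0.43 ± 0.22 (SE). The markers had −0.30 ± 0.48 (Mki67) and 0.04 ± 0.37 (Top2a; SE) with all mice and 0.35 ± 0.40 and 0.44 ± 0.32 (SE) without the 2. Leaving out aged CTL 124 alone gave 0.25 and 0.46, and leaving out young CTL 2 alone −0.62 and −0.22.

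Between aged and young CTL mice, which differ in sequencing submission as well as age, single members did pass the test. 8 were lower in aged CTL mice and 0 higher, where the test called 8.07% of all genes as lower and 6.7% as higher, and 34 of the 40 log2 fold changes were below 0 against 44.1% of all genes (median −0.42 against 0.11 over all genes). Without CKO 121 and CTL 124, 39 were below 0, against 44.8% of all genes (median −0.52 against 0.10), and leaving out 1 mouse at a time moved the median between −0.54 (aged CTL 124) and −0.25 (aged CTL 114). Mad2l1 (chr6:66535390-66547220) stood at 59.8, 111, 128 and 110.2 CPM in aged CTL mice 114, 124, 65 and 99, all below the lowest young CTL mouse (245 CPM). It fell by 1.45 ± 0.22 (SE; edgeR adjusted p = 0.00043) on the log2 scale. Pcna, at 402 ± 39 CPM (SD, n = 4) in young and 210.2 ± 40.3 CPM (SD, n = 4) in aged CTL mice, fell by 0.93 ± 0.16 (SE; edgeR adjusted p = 0.0012), again without overlap. These 2 calls held when any 1 of the 17 mice was left out and without CKO 121 and CTL 124.

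The other 6 were Ttk (−1.46 ± 0.39; adjusted p = 0.017), Ccne2 (−1.04 ± 0.28; 0.018), Tyms (−0.70 ± 0.20; 0.022), the condensin subunit Ncapg (−1.06 ± 0.31; 0.025), Nusap1 (−1.01 ± 0.33; 0.042) and Cdk1 (−0.82 ± 0.28; 0.0496; SE and edgeR adjusted p throughout). The count of members called lower ran from 3 (without aged CTL 114) to 12 (without aged CTL 124), with 4 without young CTL 2 or 4 and 5 without young CTL 1, aged CTL 65 or aged CTL 99. Of the 17 settings that left out 1 mouse, Ttk was called in 16, Ccne2 in 15, Tyms in 13, Ncapg in 11, Nusap1 in 10 and Cdk1 in 3. Without CKO 121 and CTL 124, 12 were called lower, the same 8 with Smc2, Smc4, Birc5 and Ube2c, and 0 higher, where the test called 9.92% of all genes as lower and 7.7% as higher. The markers were not called, with 0.59 ± 0.35 for Mki67 and 0.03 ± 0.27 for Top2a (SE). Both values moved with single mice, to 0.90 and 0.28 without young CTL 2, and without aged CTL 124 they were 0.02 and −0.40 (0.04 and −0.38 without CKO 121 and CTL 124).

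Between aged and young CKO mice 4 members were called lower and 1 higher. The test called 9.34% of all genes as lower and 7.21% as higher, so that the share of members called was near that of all genes downward and below it upward. 23 of 40 were below 0 (all genes: 46%; median −0.11 against 0.07), and 20 without CKO 121 and CTL 124 (all genes: 47.3%; median −0.01 against 0.05). Mad2l1, from 169, 251, 207 and 163 CPM in young CKO to 88.6, 111, 129.6, 122 and 84.3 CPM in aged CKO mice, fell by 0.88 ± 0.20 (SE; edgeR adjusted p = 0.0058). Ccne2 fell by 0.92 ± 0.26 (SE; edgeR adjusted p = 0.021), Pcna by 0.50 ± 0.15 (0.025) and Smc4 by 0.64 ± 0.20 (0.035). Foxm1 rose by 1.35 ± 0.37 (SE; edgeR adjusted p = 0.017), from 8.23 to 15.03 CPM in young CKO to 13.04 to 41.5 CPM in aged CKO mice. Its groups overlapped through aged CKO 94 alone. Mad2l1 kept its call when any 1 of the 17 mice was left out, Foxm1 in 14 of these settings, Ccne2 in 13, Pcna in 12 and Smc4 in 11. The count called lower was 1 without young CKO 2 or aged CKO 78 and 2 without aged CKO 121 or 94, and none was called higher without young CKO 2, young CKO 3 or aged CKO 121. Without CKO 121 and CTL 124 these 5 remained called, with Uhrf1 (0.78; adjusted p = 0.037) and Ncapd2 (0.91; adjusted p = 0.016) as further genes higher in aged CKO mice. These were 4 lower and 3 higher, near the 10.4% of all genes called lower and the 7.68% called higher. With all mice, Uhrf1 had 0.85 ± 0.31 (SE; edgeR adjusted p = 0.062), Mki67 0.29 and Top2a 0.07, and without the 2 mice these markers had 0.39 and 0.06.

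Other genes of the same pathways were described from lists of 56 further mitotic genes, 51 further S-phase genes, 19 of origin licensing and 14 of G1 control present in the table. None of them was called by genotype at either age or in the interaction, with or without the 2 mice. At an unadjusted p in young mice, 3 further mitotic genes, 10 S-phase genes and 2 licensing genes were lower and 0 of these 3 lists higher, where 2.8% of all genes were lower. The medians were −0.33, −0.21 and −0.11, beside −0.34 for the members. In aged mice 3, 6 and 2 were higher (4.45% of all genes) and 0, 1 and 0 lower. Without CKO 121 and CTL 124 it was 8, 15 and 5 higher (5.53% of all genes) and 0 lower. The medians were 0.09, 0.20 and 0.18 with all mice and 0.31, 0.33 and 0.29 without the 2. The 14 G1 control genes had medians of 0.02 in young and 0.06 in aged mice (0.08 without the 2). At an unadjusted p, 2 were higher (Ccnd1 at 1.31 and Cdkn1a at 1.16) and 1 lower (Cdk2 at −0.47) in young mice, and 1 higher (Cdk6 at 1.10) and 2 lower (Cdkn1c at −1.22 and Ccnd2 at −0.55) in aged mice. Without the 2 mice it was 2 higher and 2 lower. Between aged and young CTL mice, 10 mitotic, 13 S-phase and 5 licensing genes were called lower (8.07% of all genes) and 1 S-phase gene higher, while 5 G1 genes were called higher (6.7% of all genes). Without CKO 121 and CTL 124 it was 15, 22 and 7 lower and 0 higher, with 5 G1 genes higher. The 5 with the smallest p were Tipin, of the replication fork (−1.36; edgeR adjusted p = 9.8e-05), Slbp, which binds histone mRNA (−1.16), Rfc4, of the clamp loader (−1.30), Rpa3, of the single-strand binding complex (−1.34), and Dut, the dUTPase (−1.01). Between aged and young CKO mice, 4, 8 and 5 were called lower (9.34% of all genes) and 1, 2 and 1 higher (7.21%), with 3 G1 genes higher, so that the mitotic counts were below the shares of all genes. Without the 2 mice it was 5, 9 and 4 lower and 1, 2 and 2 higher, again with 3 G1 genes higher. With all mice the first 5 were Orc4 of the origin recognition complex (−1.04), Tipin (−0.80), Rpa3 (−0.97), Slbp (−0.72) and E2f8, a repressing E2F factor (1.38; edgeR adjusted p = 0.0041).

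The mitotic members moved together from mouse to mouse, and less closely with the S-phase members. Over the 17 mice, as deviations from the group means of log2 CPM, the median Pearson r between mitotic members was 0.65 (490 of 496 pairs positive), between S-phase members 0.42 (27 of 28 pairs), and between the 2 kinds 0.22 (204 of 256 pairs). Of the 32 mitotic members, those that followed the mean of the others most closely were Bub1 (r = 0.95), Tpx2 (0.94), Ccna2 (0.94) and Ube2c (0.93), and the least so were Ttk (0.42) and Anln (0.43). The markers had 0.85 each. The S-phase members ran from −0.17 (Ccne1, the 1 member with a negative value) to 0.53 (Uhrf1). The mean of the mitotic members followed that of the 56 further mitotic genes (Pearson r = 0.98, Spearman rho = 0.97, and 0.98 without the 2 mice farthest out) and less that of the S-phase members (0.40, 0.35 and 0.40) and of the 51 further S-phase genes (0.51, 0.34 and 0.53). Over the 15 mice without CKO 121 and CTL 124 the median r was 0.67 between mitotic members, 0.48 between S-phase members and 0.08 between the 2 kinds, and the means of the 2 kinds had r = 0.25 (rho = 0.12, and 0.55 without the 2 mice farthest out). The mice share scaling and few mice make each group, so these values are descriptions.

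The same holds between the 2 libraries of a mouse, which hold different cells of 1 animal sorted alike. In the 16 mice with both libraries, the mean of the mitotic members differed between A and B by a median of 0.28 on the log2 scale, and by at most 0.83 (young CTL 3). For the S-phase members the median was 0.29 and the largest 1.07 (young CTL 1). Library A was the higher in only 4 of the 16 mice for the mitotic mean and in 5 for the S-phase mean. Aged CTL 99 entered the tests with library A alone. The SD between libraries of a mouse was 0.31 for the mitotic mean and 0.35 for the S-phase mean, beside 0.44 and 0.25 between mice of a group. Over the 16 differences the median r was 0.33 between mitotic members (418 of 496 pairs positive), 0.39 between S-phase members (25 of 28) and −0.06 between the 2 kinds (107 of 256), and the mitotic and S-phase means had r = −0.004 (rho = 0.02, and 0.30 without the 2 mice farthest out). As a set, the members varied between libraries about as much as other genes: their median absolute log2 ratio was 0.39, beside 0.38 for the 7506 genes in the same range of CPM. Single members differed widely in this. The largest medians were those of Ccne1 (1.2049), Foxm1 (0.98), Ect2 (0.93), Ncapd2 (0.85) and Ttk (0.75), and the smallest those of Smc2 (0.17) and Mki67 (0.19). For the genes with the largest medians, the largest genotype log2 fold changes given above were of similar size. Libraries of a mouse are not independent mice and were added before any test.

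**Figure D5:**
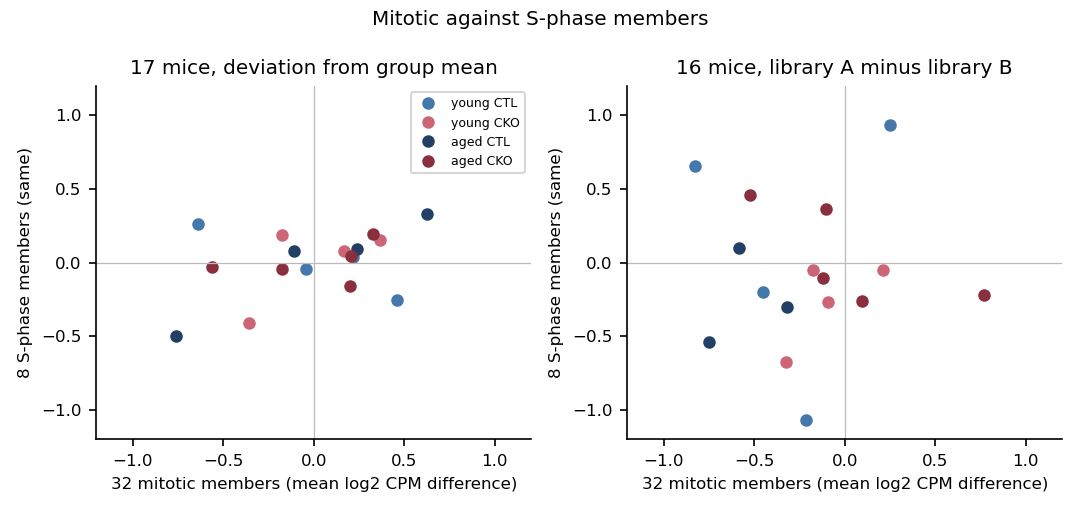
Mean log2 CPM of the 8 S-phase members against that of the 32 mitotic members, as deviations of 17 mice from their group means (left) and as differences between libraries A and B of 16 mice (right), coloured by group. The points rise only loosely to the right on the left side (Pearson r = 0.40) and not on the right side (r = −0.004).

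Genes of HSCs and of other blood cells were followed as lists beside the members. The sort removed cells bound by antibodies to markers of mature lymphoid, myeloid and erythroid cells as well as CD48+ cells. The mean log2 CPM of 5 genes of multipotent progenitors was 5.63 in young CTL, 5.69 in young CKO, 5.38 in aged CTL and 4.54 in aged CKO mice, and that of 8 megakaryocyte genes 5.52, 6.19, 5.25 and 6.44. The list of 12 HSC genes stood at 6.53, 6.65, 6.82 and 6.94, the erythroid list at 3.93, 4.21, 3.57 and 3.30, the myeloid at 2.53, 2.36, 2.15 and 1.73, and the lymphoid at 2.27, 2.11, 2.16 and 1.98. Summed CPM ran the other way between genotypes for the myeloid list (group means 1011, 1136, 884 and 1025) and the lymphoid list (527, 532, 295 and 307). In young mice it also did so for the erythroid list (3286 and 3206). The genotype direction of these lists thus depended on the summary used. Cd48, against which the cells were sorted, was at 67.9 and 102 CPM in young CTL and CKO and at 11.8 and 12.4 CPM in aged CTL and CKO mice, or 6.41 and 10.6 CPM without CKO 121 and CTL 124. Without CKO 121 and CTL 124 the aged CTL and CKO means were 5.26 and 4.43 for the progenitor list, 5.34 and 6.73 for the megakaryocyte list and 2.32 and 2.00 for the lymphoid list. Over the 17 mice the mitotic mean had r = −0.65 with the lymphoid list (rho = −0.48, and −0.34 without the 2 mice farthest out) and r = −0.48 with the progenitor list (rho = −0.38, and −0.33 without the 2 farthest). Over the 15 mice without CKO 121 and CTL 124 it had −0.59 with the lymphoid list (rho = −0.44, and −0.53 without the 2 farthest). With the progenitor list it had −0.63 (rho = −0.375, and −0.59 without the 2 farthest). Aged CTL 114 had the lowest mitotic mean (5.72) and the highest progenitor (6.52), lymphoid (3.16) and myeloid (3.19) means of the 17 mice. Of the lymphoid list, 5 of 10 genes were in the table. The sum of their CPM ran from 463 to 612 in young and from 197 to 401 in aged mice. Nearly all of it was Nkg7, of cytotoxic lymphocytes, and Cd79b, a B cell receptor subunit. In young CTL and CKO mice Nkg7 stood at 442 and 412 CPM (log2 fold change −0.10; p = 0.48, edgeR adjusted p = 0.95) and Cd79b at 83.3 and 120.1 CPM (log2 fold change 0.53; p = 0.0091, edgeR adjusted p = 0.46). Its partner Cd79a and the receptor gene Il7r had 0 counts in every young mouse. The part of these lists in the members' levels was not tested.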

How the data were processed

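Per the labels and the study's methods, the authors used HISAT2 for alignment to GRCm38 (mm10) and Rsubread for counting, and deposited raw, whole-number counts with 1 column per library. The annotation and the use of strand are not given in the sources used here. Of the 34 libraries, 33 were used, and the counts of the libraries of a mouse were added, so that mice were the replicates. Of the 13108 rows, 20 had names turned into dates, none of them a member.

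A gene entered a test if filterByExpr kept it (count at least 10, total at least 15). Scaling was by TMM, and the quasi-likelihood test of edgeR 4.0.16 (R 4.3.3) was used, with Benjamini-Hochberg adjustment over all genes at 0.05. Standard errors come from F, as |log2 fold change| over its square root. Young (8 mice) and aged (9 mice) genotypes were fitted apart. The interaction and the contrasts of age came from 1 fit over 17 mice. Scores are means of log2 CPM (prior count 2). The fits of the genotypes, the interaction and the age contrast in CTL mice were also run on simulated data. How often small changes were recovered is not reported here, so an uncalled gene is not shown to be unchanged.

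The members and all gene lists were chosen with earlier results of these data known. Values are given for Mki67 and Top2a, for the 6 members with the smallest p in each comparison, and for the member with the highest CPM in each of 7 roles. Of the other pathway genes, up to 5 called genes per comparison are named. Other named members, Aurkb, Cenpe, Tpx2, Kif11, Cdc20 and the extremes per kilobase among them, were chosen after their values were seen. Alternatives were edgeR's likelihood ratio test over libraries (the study names this test, and the submitters' design notes count libraries as replicates), DESeq2 1.42.0, RLE scaling, other filters (none, or a mean count of 50 or more), a fit over all mice, Y-linked reads as a covariate, a replicate block, and leaving out mice. Levels, list means and covariation without CKO 121 and CTL 124 were added after the data were seen. Per the study's methods, control mice were littermates, but nothing ties a mouse number shared by young CTL and CKO mice to 1 litter or day.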

Additional observations from a re-analysis of the deposited data

Results flagged for a closer look

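Of 112 groups of 4 or 5 mice examined over the 25 members named by the rule and the mean scores, 7 had a mouse that stood apart from the rest by Dixon's criterion, where chance gives about 1 in 20. Pcna was highest in young CTL mouse 3, with a log2 CPM of 8.85 beside 8.61 in the next mouse. The same mouse had the lowest Ube2c, 6.89 beside 8.45. Tyms was highest in young CKO mouse 2, 8.36 beside 7.97. In aged CKO mouse 94, Anln was lowest at 4.89 beside 5.39, and Prc1 was lowest at 6.40 beside 7.24. Smc4 was highest in the mouse labelled aged CTL 124, 8.58 beside 7.75, and so was Smc2, 8.53 beside 7.13. No member differed between ages in its genotype effect by the interaction test with adjustment. The library left out held 752 counts of members, 4021 CPM in sum, inside the range of the kept aged CTL libraries (2853 to 8521 CPM).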

How the results depend on the processing

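Directions of uncalled values did turn: without CKO 121 and CTL 124, Mki67 in aged mice went from −0.44 to 0.20 and the number of members below 0 from 20 to 7. The genotype comparisons called no member under the alternatives run, except that the likelihood ratio test over libraries called 1 higher in aged mice (Tk1). For the interaction and the ages, RLE scaling, DESeq2 and leaving out mice were run, and the interaction called no member under these. In aged against young CKO mice, the members called higher were 2 by DESeq2 and 3 without CKO 121 and CTL 124, in place of 1. When 1 mouse was left out they ranged from 0 to 3 (0 without young CKO 2, without young CKO 3 or without aged CKO 121), and those called lower from 1 to 6. Those called lower in aged against young CTL mice ranged from 3 to 12.

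The mouse number as a replicate block in young mice called 0 members (median −0.35), with 13 lower at an unadjusted p beside 10 without it. Same-numbered mice correlated between −0.02 and 0.05 in their deviations, and 2 of 4 best with their own number, so the numbers gave no sign of pairing. The library letter as a replicate block in the likelihood ratio test over libraries called 0 members at either age. Over all genes, DESeq2 called 77 in young and 104 in aged mice and the likelihood ratio test over libraries 90 and 420, beside 20 and 0 in the quasi-likelihood test. RLE scaling moved the median of all genes by at most 0.014. With 4 or 5 mice a group, an exact test over mice cannot go below 0.0286 or 0.0159.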
